A study of Mus musculus with 32 samples.

Results

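Livers of male C57/BL6 mice fed a methionine and choline deficient diet (MCD) or standard chow (C) were compared 2 weeks after a 70% partial hepatectomy (PH), in animals that had received no drug. The comparison takes the 8 arrays whose titles and descriptions give these groups, 4 MCD and 4 C, out of the 32 arrays of the series. Mice were 8 weeks old when the study began. They ate the diet for 3 weeks, lost 70% of the liver and ate the same diet for another 2 weeks, with injections of saline as vehicle. Every liver measured here therefore came from a mouse that had lived to that time, and surgery and saline were common to both groups. Regrowth was not alike: the paper reports a reduced recovery of liver mass in MCD mice. It also reports that only a minority of MCD mice survived the early period after PH. The part of regrowth and of survival in the differences between the groups was not tested. The description of the MCD arrays names the diet methyl and choline deficient, while the growth protocol names it methionine and choline deficient. Each array was labelled as a biological replicate. Groups from the same series appear beside this comparison at a few places: C and MCD before PH, and, 2 weeks after PH, the mice given Fc-GLP-1 on chow (C+Fc-GLP-1) or on MCD (M+Fc-GLP-1), called treated mice here. The arrays before PH were of liver removed at the operation and carry the same numbers in their titles as those after PH, so both may come from the same animals. The labels call the drug a dual agonist, for the glucagon receptor as well as that of GLP-1, a wording that differs from its name.

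Methionine and choline feed the synthesis of phosphatidylcholine, which the liver needs to export triglyceride in very low density lipoprotein. A rodent deprived of both nutrients accumulates fat in hepatocytes, loses weight, and develops inflammation without obesity. Amino acid shortage acts through the kinase GCN2 and the transcription factor ATF4, whose targets include asparagine synthetase and the hormone FGF21. After partial hepatectomy the remnant lobes of a rodent liver grow back by hepatocyte proliferation, which in a healthy animal is largely over within days. In the adult liver, the pulsatile secretion of growth hormone maintains a male pattern of gene expression through STAT5B, and a large set of P450 and sulfotransferase genes is expressed differently in males and females.

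The promoters of 5 genes that were higher in MCD mice are shown because they hold short sequence words known from these pathways. Each run covers the 250 bases before and the 50 bases after a RefSeq start of the gene on build GRCm38.p6, written 5′ to 3′ on the gene's own strand. For Per1 and Ciart that start lies inside the span listed for the gene. In the first set the capitals mark matches, on either strand, to TGATGNAA, the word of the composite element bound by ATF4 and C/EBP. Fgf21 encodes the stress hormone above (chr7:45615441-45615740, minus strand), Asns encodes asparagine synthetase (chr6:7693160-7693459, minus strand) and Nupr1 encodes a small stress-induced chromatin protein (chr7:126625421-126625720, minus strand).
Fgf21: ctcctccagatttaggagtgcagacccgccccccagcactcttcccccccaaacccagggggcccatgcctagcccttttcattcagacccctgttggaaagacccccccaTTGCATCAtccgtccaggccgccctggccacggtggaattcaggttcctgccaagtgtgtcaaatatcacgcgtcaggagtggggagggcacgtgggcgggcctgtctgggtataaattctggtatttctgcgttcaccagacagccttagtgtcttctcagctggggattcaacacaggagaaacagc
Asns: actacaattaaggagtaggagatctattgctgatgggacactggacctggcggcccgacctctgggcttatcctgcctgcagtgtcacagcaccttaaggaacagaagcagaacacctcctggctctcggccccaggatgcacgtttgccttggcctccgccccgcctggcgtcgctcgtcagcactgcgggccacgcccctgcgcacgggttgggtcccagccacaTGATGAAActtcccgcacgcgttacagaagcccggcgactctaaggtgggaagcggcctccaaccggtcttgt
Nupr1: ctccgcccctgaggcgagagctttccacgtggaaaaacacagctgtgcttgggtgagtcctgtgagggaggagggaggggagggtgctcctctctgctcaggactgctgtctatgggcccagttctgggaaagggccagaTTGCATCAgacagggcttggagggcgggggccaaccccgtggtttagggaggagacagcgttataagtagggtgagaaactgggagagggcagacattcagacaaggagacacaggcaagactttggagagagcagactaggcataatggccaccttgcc
In the second set the capitals mark CACGTG, the E-box word read by CLOCK and BMAL1. Ciart encodes a repressor of that pair (chr3:95882179-95882478, minus strand) and Per1 encodes a period protein of the same feedback loop (chr11:69098699-69098998, plus strand).
Ciart: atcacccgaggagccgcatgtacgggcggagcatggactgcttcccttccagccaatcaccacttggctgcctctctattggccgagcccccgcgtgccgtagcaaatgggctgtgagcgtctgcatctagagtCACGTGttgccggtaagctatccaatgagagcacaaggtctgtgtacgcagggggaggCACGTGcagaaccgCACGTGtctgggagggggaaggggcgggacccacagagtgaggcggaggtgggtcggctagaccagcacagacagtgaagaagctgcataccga
Per1: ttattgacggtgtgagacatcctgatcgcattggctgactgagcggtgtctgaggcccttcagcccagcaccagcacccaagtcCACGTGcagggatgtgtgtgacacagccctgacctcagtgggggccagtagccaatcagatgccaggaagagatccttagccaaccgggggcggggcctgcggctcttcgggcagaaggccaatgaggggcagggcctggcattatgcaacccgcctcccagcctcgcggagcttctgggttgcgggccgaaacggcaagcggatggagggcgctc
TGATGNAA was found on either strand in 4.06% of 27025 RefSeq promoters of this length, and in 6 of the 20 tested genes of the list of endoplasmic reticulum and integrated stress response genes. CACGTG was found in 7.24% of the same promoters and in 4 of the 13 tested clock genes that had a promoter in the table. A match describes these letters only, and factor binding was not measured.

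Values are log2 of the scanner's processed signal, from which the array's own 75th percentile was subtracted, so a value of 0 lies at that percentile and a difference of 1 is 2-fold. The 75th percentile was 471.5 to 778.4 intensity units over the 8 arrays, and 44.0% to 60.4% of probes were well above background. The tissue was as labelled. None of the 19 hepatocyte product genes tested, which include albumin and transthyretin, passed the test, and their median change was 0.03. Alb itself, encoding albumin, was 9.84 ± 0.33 in C and 10.01 ± 0.19 in MCD (mean ± SD, n = 4 arrays each). Ddx3y, on the Y chromosome, was well above background on all 8 arrays. In bulk liver RNA, fewer cells of a type and less RNA per cell cannot be told apart.

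C replicate 1 stood apart from the rest of its group. Over 21071 genes it correlated at 0.938 to 0.955 with the other C arrays, against up to 0.984 among them, and at 0.951 to 0.953 with the MCD arrays. It lay at least 4-fold from the mean of the other C arrays in 1104 genes, 5.24% of those tested, against 110 to 312 genes for each of the other 7 arrays from the rest of its own group. Slco1a1, a bile acid and organic anion transporter, was -6.53 on it and 2.31 to 3.72 on the other C arrays. H19, a fetal liver noncoding RNA, was 5.35 on it and -3.18 to -0.98 on them. Against the mean of the other C arrays, the median difference on it was 3.28 for recruited macrophage genes, 2.30 for mitosis genes, 2.09 for biliary and fetal genes and -2.85 for male-biased liver genes. Its deviation from the other C arrays correlated across genes at 0.484 with the MCD minus C difference measured before PH, against -0.218, -0.435 and -0.142 for the other C arrays and -0.110 to 0.121 for the MCD arrays. Deviations within a group cancel out, so the negative values of the other C arrays follow in part from that of C replicate 1. Results are therefore given with this array and without it. The 4 C arrays lay on a slide of their own and the 4 MCD arrays on another, so diet and slide cannot be told apart here. In the comparisons before PH and in treated mice, by contrast, both diets shared a slide, but these were read on another scanner. The spike-in controls had another pattern of levels on the 8 arrays than in the other groups: 1 control lay at 7.84 (C) and 7.54 (MCD), against 5.03 to 5.42 elsewhere, and another at -5.67 and -5.83, against 6.42 to 6.82.

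The livers of MCD and C mice differed in many genes 2 weeks after PH. Of 21071 genes tested by limma, 2558 passed an adjusted p of 0.05, a background of 12.1%, with 1275 higher in MCD mice (6.05%) and 1283 lower (6.09%). The counts of genes called in the lists below stand beside these shares. Changes of at least 8-fold were more often rises, in 96 genes against 52. The values of the 2 groups did not overlap in 3626 genes, 17.2% of those tested, and 1928 genes both passed the test and did not overlap. Without C replicate 1 the count was 3003 (14.3%), with 1300 higher and 1703 lower, and 2173 genes were called both ways in the same direction. It was 1659 without C replicate 2, 1688 without C replicate 3 and 1685 without MCD replicate 2. Of the genes called higher, 55 had a probe that no C array showed well above background, and of those called lower, 72 had one that no MCD array did.

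The largest rises among called genes without overlap included enzymes of female liver, the hormone Fgf21 and a lipid droplet protein. Cyp3a44, a steroid and drug P450 of female liver (chr5:145773983-145805891), was -3.97, -4.94, -4.76 and -3.77 on C replicates 1 to 4 and 3.92, 4.24, 4.96 and 5.55 on the MCD replicates. All MCD arrays stood far above all C arrays, and the probe was well above background on only 2 of the C arrays. The log2 difference was 9.03 ± 0.58 (SE, limma adjusted p = 1.8e-11). Fgf21, the hormone released by the stressed liver, was -3.80, -3.12, -3.60 and -2.87 in C and 3.85, 4.08, 3.52 and 3.42 in MCD. Here too the groups lay well apart, each within a narrow band, and C replicate 1 was no exception. Its difference was 7.06 ± 0.54 (limma adjusted p = 5.29e-10), and 6.91 without C replicate 1. Mfsd2a, which carries lysophosphatidylcholine into cells, differed by 5.91, and Cidec, which fuses lipid droplets, by 5.53. Radx, a protein of stalled replication forks, differed by 6.16, with its probe well above background on 1 of the C arrays. The probe of Vmn2r5, annotated as a pheromone receptor, was not well above background on any C array, so that its level in MCD mice was at least 14.1-fold higher.

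The largest falls included a male-pattern P450, several transcripts better known from other organs and a pyrimidine enzyme. Cyp4a12a, the male-specific hydroxylase of arachidonic acid (chr4:115299046-115332815), was 0.60, 5.98, 6.56 and 5.54 in C and -2.78, -1.99, -0.67 and -0.81 in MCD. C replicate 1 lay between the other C arrays and the MCD arrays. The difference was -6.23 ± 0.83 (limma adjusted p = 6.48e-06) and -7.59 without that array. Dpys, the dihydropyrimidinase of pyrimidine breakdown, was 4.44, 5.22, 5.63 and 5.12 in C and 1.05, 1.16, 1.52 and 1.40 in MCD. Its groups were tight and far apart, with a difference of -3.82 ± 0.29 (limma adjusted p = 5.29e-10). Hnf4aos, the antisense transcript of the hepatocyte factor Hnf4a, fell by 5.64 on the log2 scale, Susd4, a complement regulator, by 4.61, and Ptgds, a prostaglandin D synthase, by 4.10. Lrit2, a leucine-rich repeat protein known from retina, was on no MCD array well above background and lay at least 5.24-fold lower. Features without a gene symbol were left out of these names: 2 lay within the range of the falls and 0 within that of the rises.

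**Figure D1:**
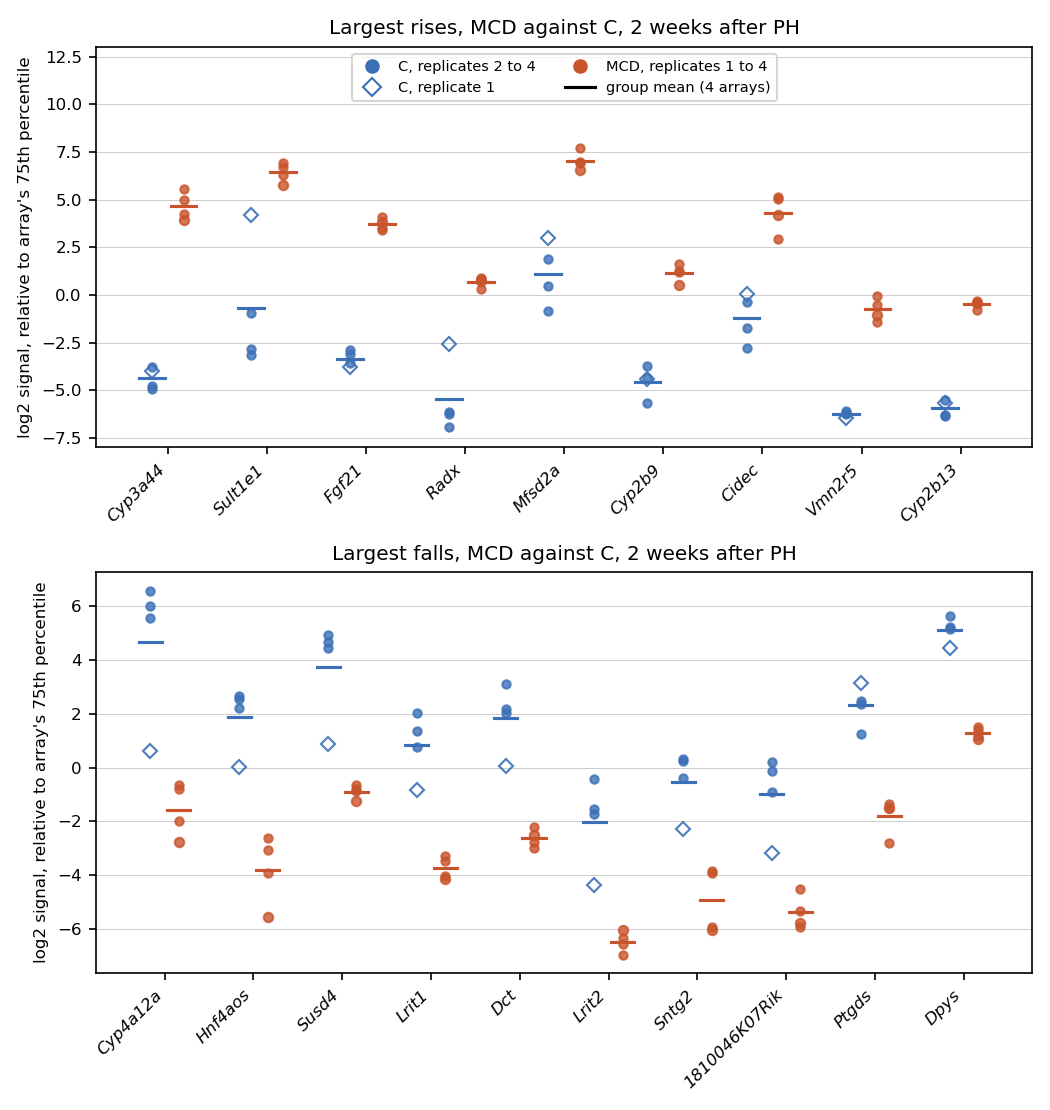
Log2 signal relative to each array's 75th percentile for the largest rises (top) and largest falls (bottom) of MCD against C, 2 weeks after PH. Blue marks C, with C replicate 1 as an open diamond, orange marks MCD, and short bars are means of 4 arrays; in Fgf21 the C arrays sit between -3.80 and -2.87 and the MCD arrays between 3.42 and 4.08, while the open diamond lies apart from the other C arrays in genes such as Sult1e1 and Cyp4a12a.

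Genes with a sex-biased pattern in mouse liver moved in opposite directions in these males. Of 16 female-biased genes tested, 11 rose and 0 fell, with a median change of 2.14, and of 12 male-biased genes tested 0 rose and 7 fell, with a median of -1.54. Over all genes tested the median was -0.03. Without C replicate 1 the counts were 13 and 0 with a median of 2.97, and 0 and 10 with a median of -2.43.

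Sult1e1, the estrogen sulfotransferase, was 4.18, -0.95, -2.83 and -3.17 in C and 5.76, 6.94, 6.68 and 6.30 in MCD. Every MCD array was higher than every C array, and C replicate 1 was the nearest to them. The difference was 7.11 ± 0.94 (limma adjusted p = 5.8e-06), and 8.74 without that array. Cyp2b13, a P450 of female liver, was not well above background on any C array and was at least 16.9-fold higher in MCD mice. Its close relative Cyp2b9 differed by 5.68, with 2 of the C arrays well above background. P450 genes of one subfamily are alike in sequence, and a probe of one can take up transcript of another.

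Elovl3, a fatty acid elongase that is high in male liver, was -3.61, 5.02, 4.70 and 5.39 in C and -4.38, -4.51, -3.14 and -3.17 in MCD. Here C replicate 1 lay among the MCD arrays and the other 3 C arrays lay far above. Its difference of -6.68 ± 1.15 (limma adjusted p = 0.000232) became -8.84 without that array. The SD was 4.33 in C and 0.75 in MCD, and the call was lost when only these groups were fitted (limma adjusted p = 0.0515). Hsd3b5, a steroid dehydrogenase of male liver, was -3.63, 6.25, 5.56 and 3.14 in C and between -2.75 and -2.42 in MCD. C replicate 1 lay below every MCD array, and the difference was -5.33 with it and -7.48 without it. The call of Hsd3b5 was also lost when only these groups were fitted (limma adjusted p = 0.104). The complement component gene C6, also male-biased, fell by 3.38 on the log2 scale without overlap. Of 13 genes of growth hormone signalling and IGF biology 0 rose and 2 fell, and 5 fell without C replicate 1. Igf1, the growth factor that growth hormone induces in liver, was at least 6.25 in C and at most 5.95 in MCD, lower by 0.99 ± 0.24 (limma adjusted p = 0.00549), but 1 of its 4 other probes had the opposite sign and the call was lost when a gene's probes were averaged.

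The list of the endoplasmic reticulum and integrated stress responses was divided. Of 20 genes tested 6 rose and 2 fell, with a median of 0.42. Without C replicate 1 the counts were 5 and 3, with a median of 0.37. The 6 that rose were Asns, Trib3, Nupr1, Atf3, Ddit3 and Sesn2, and the activity of ATF4 was not measured. Asns, asparagine synthetase, was 1.76, 3.39, 1.48 and 3.20 in C and 5.71, 6.01, 5.63 and 5.99 in MCD. The MCD arrays were nearly equal and lay above all C arrays, which were spread in pairs. The difference was 3.38 ± 0.44 (limma adjusted p = 4.95e-06). Trib3, a pseudokinase that restrains ATF4, was 2.21, 1.17, 2.59 and 1.57 in C and 5.93, 6.38, 3.63 and 4.33 in MCD. Nupr1 was 2.07, 1.18, -0.10 and 1.14 in C and 5.93, 5.72, 3.32 and 3.15 in MCD. In both genes MCD replicates 1 and 2 were higher than replicates 3 and 4, and all 4 were above C. Trib3 differed by 3.18 ± 0.54 and Nupr1 by 3.45 ± 0.63 (limma adjusted p = 0.000192 and 0.000488). Sdf2l1 and Creld2, chaperone partners of the endoplasmic reticulum lumen, fell by 1.71 and 1.13 on the log2 scale. The promoters of Asns and Nupr1 printed above, and those of Atf3, Trib3, Chac1 and Herpud1, held the TGATGNAA word, and of these 6 genes Chac1 and Herpud1 did not pass the test. Atf3, a stress-induced factor of the ATF family, was 2.77 higher in MCD, but C replicate 1 (1.05) lay above MCD replicate 3 (0.88). Its limma adjusted p of 0.0387 was up to 0.161 when C replicate 2, 3 or 4 or MCD replicate 1, 2 or 4 was left out. Ddit3, the factor CHOP, was 1.21 higher in MCD, with a limma adjusted p of 0.0321 that passed 0.05 no longer when C replicate 1, 3 or 4 or MCD replicate 1 or 2 was left out (highest 0.135).

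Genes of fat storage and oxidation were more often higher than lower, and those of fat synthesis more often lower. Of 19 genes of lipid droplets and fatty acid uptake 9 rose and 1 fell (median 0.37). Without C replicate 1 the counts were 9 and 3 (median 0.86). Of 25 genes of fatty acid oxidation and PPAR alpha 9 rose and 1 fell (median 0.35), or 8 and 1 without that array (median 0.16). Of 20 genes of lipogenesis and triglyceride synthesis 1 rose and 4 fell (median -0.34), or 1 and 5 without it (median -0.39). Over all genes tested 6.05% rose and 6.09% fell. Cidec was 0.06, -1.75, -2.80 and -0.38 in C and 4.17, 5.14, 2.93 and 5.04 in MCD, with no overlap. G0s2, the inhibitor of adipose triglyceride lipase, was 1.09, 3.42, 2.75 and 2.40 in C and 4.68, 4.74, 5.50 and 5.59 in MCD. It differed by 2.71 ± 0.48 (limma adjusted p = 0.000325), with all MCD arrays above all C arrays. Among the perilipins that coat lipid droplets, Plin4 differed by 2.74, Plin5 by 1.35 and Plin2 by 1.03. The fatty acid transporter Cd36 was 2.28, 1.07, 0.87 and 1.54 in C and 3.47, 3.60, 3.65 and 3.92 in MCD, and differed by 2.22. Acot3, a peroxisomal acyl-CoA thioesterase induced by PPAR alpha, was 0.72, -2.02, -1.50 and -1.67 in C and 1.51, 1.39, 3.24 and 3.29 in MCD. It differed by 3.48 ± 0.70 (limma adjusted p = 0.00122) and C replicate 1 was the highest of its group. Cyp4a14, a fatty acid omega-hydroxylase, differed by 3.07 and was not called without C replicate 2 (limma adjusted p = 0.0594). Ppara, encoding the receptor, was 1.22 higher in MCD, and 0.85 higher without C replicate 1, where its limma adjusted p was 0.0505.

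On the synthetic side, Scd1, the stearoyl-CoA desaturase that makes oleate, was 7.90, 8.15, 8.25 and 8.24 in C and 5.94, 6.08, 4.49 and 4.88 in MCD. The C arrays lay within a narrow band above all MCD arrays. It fell by 2.79 on the log2 scale (SE 0.40, limma adjusted p = 1.89e-05). Srebf1, the transcription factor of lipogenesis, fell by 1.59 and Lpin1, a phosphatidate phosphatase and coactivator, rose by 1.92. Fasn, fatty acid synthase, was 1.98, 3.18, 2.72 and 3.01 in C and 3.12, 3.44, 2.15 and 2.08 in MCD, and the groups overlapped (difference -0.03, limma adjusted p = 0.978). Among 15 apolipoprotein and lipoprotein export genes, Apoa4 rose by 3.63, the hepatic lipase Lipc fell by 2.43 on the log2 scale, and Apob was not called (difference -0.10).

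Bile acid and methionine genes were lower more often than higher. Of 17 genes of bile acid synthesis and transport 1 rose and 8 fell (median -0.96), or 1 and 9 without C replicate 1 (median -1.09). Of 25 genes of the methionine cycle, one-carbon and choline metabolism 2 rose and 6 fell (median -0.36), or 2 and 8 without that array (median -0.49). Over all genes tested 6.05% rose and 6.09% fell. Cyp7b1, the oxysterol hydroxylase of the alternative bile acid pathway, was 2.12, 6.31, 6.90 and 6.06 in C and 2.15, 2.90, 2.76 and 2.71 in MCD. C replicate 1 was as low as the MCD arrays. The fall of 2.72 on the log2 scale (limma adjusted p = 0.00663) was -3.79 without it. Cyp27a1, which starts that pathway, fell by 1.58, and Abcc3, a basolateral exporter, by 0.97. When only these groups were fitted, Cyp7b1 and Cyp27a1 did not pass (limma adjusted p = 0.0964 and 0.0587). Cyp7a1, the rate-limiting enzyme of the classical pathway, was 2.26, 4.13, 2.38 and 3.42 in C and -0.34, 0.95, 1.74 and 2.06 in MCD. It was lower on every MCD array, yet its limma adjusted p of 0.0328 rose to between 0.0801 and 0.149 when C replicate 2 or 4 or MCD replicate 1 or 2 was left out. Cyp8b1, which sets the share of cholic acid, was far lower on C replicate 1 than on the other C arrays, where it was 2.68 to 3.68, and was -1.48 to -0.16 in MCD. With C replicate 1 its difference was -1.88 and did not pass (limma adjusted p = 0.25), and without it the difference was -3.94 (adjusted p = 3.13e-07).

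Among the methionine genes, Mat2a, the form of S-adenosylmethionine synthetase that the adult liver keeps low, was 4.93, 4.80, 4.85 and 4.97 in C and 5.97, 6.72, 6.49 and 6.45 in MCD. Its C arrays were nearly equal and all below MCD, with a difference of 1.52 ± 0.32 (limma adjusted p = 0.0018). Mat1a, the hepatocyte form, was not called (difference 0.19). Cth, the cystathionase that makes cysteine, was 6.22, 6.78, 7.02 and 7.04 in C and 4.85, 5.07, 5.38 and 5.65 in MCD, lower throughout by 1.53 ± 0.29 (limma adjusted p = 0.00076). Gnmt, which disposes of excess S-adenosylmethionine, fell by 1.06 on the log2 scale, and Chka, the kinase that commits choline to phosphatidylcholine, by 1.22. Mthfd1l, the mitochondrial enzyme that releases formate, rose by 2.91. Of 19 genes of amino acid breakdown and the urea cycle 1 rose and 3 fell, but 0 rose and 10 fell without C replicate 1. Otc, ornithine transcarbamylase, fell by 1.91 and did not depend on that array (-2.16 without it).

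Clock genes differed between the groups. Of 16 clock genes tested 7 rose and 2 fell with a median of 0.92, and the same counts were found without C replicate 1. Ciart (chr3:95878500-95882257) was -4.21, -6.20, -6.49 and -7.19 in C and -1.64, -1.58, -0.07 and 0.66 in MCD. It was on no C array well above background, lay at least 14.1-fold higher in MCD mice and had a limma adjusted p of 6.08e-07. Dbp, an output transcription factor of the clock, was 3.67, 0.69, 3.00 and 0.74 in C and 5.04, 5.81, 6.10 and 6.53 in MCD. All MCD arrays were above the C arrays, which fell into a higher and a lower pair. It differed by 3.84 ± 0.68 (limma adjusted p = 0.000306). Per1 was 3.44, 0.45, 1.16 and 1.73 in C and 4.75, 4.68, 4.90 and 4.84 in MCD. Its MCD values were nearly equal and above every C value, and the difference without C replicate 1 was 3.68. Per3, well above background on 1 C array, differed by 2.52, and Tef, a relative of Dbp, by 1.84. Per2 differed by 1.88, but its groups overlapped: MCD replicate 2 was -1.59, and the C arrays were -2.63 to -1.46. Arntl, which encodes BMAL1, the activator partner of CLOCK, was 0.47, 1.40, 1.33 and 2.20 in C and -0.01, 0.07, -1.94 and -1.56 in MCD. It was lower on every MCD array by 2.21 ± 0.64 (limma adjusted p = 0.0227), a call that was lost when C replicate 2 or 4 or MCD replicate 3 or 4 was left out (highest 0.0839). Nfil3, a repressor of the Dbp sites, was the other gene that fell (-1.25, limma adjusted p = 0.0327), and its call was lost without any array except C replicate 1 (highest 0.13). The TTANGTAA word of the D-box, to which DBP and NFIL3 bind, was found on either strand in 2.34% of all promoters and in 1 of 13 tested clock genes, Per3. The hour at which the livers were taken is not given in the sources used here, and its part in the result was not tested.

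**Figure D2:**
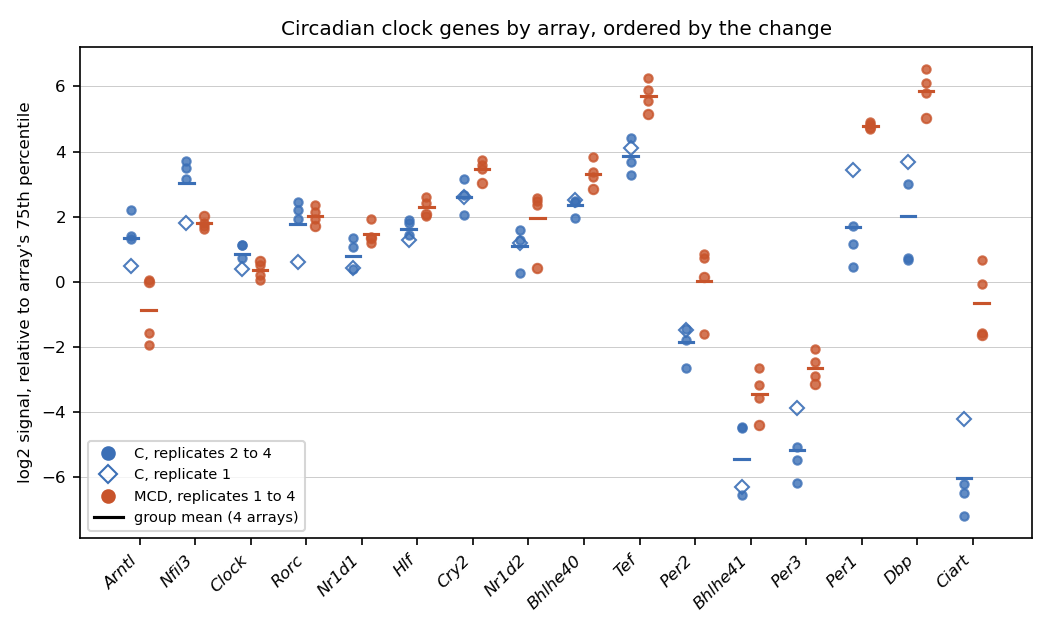
Log2 signal relative to each array's 75th percentile for the 16 clock genes tested, ordered from the lowest to the highest MCD minus C difference. Blue is C with replicate 1 as an open diamond, orange is MCD, and bars are means of 4 arrays; Arntl is lowest in order at -2.21 and Ciart, which no C array showed well above background, is last.

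Immune genes did not move together. Of 15 neutrophil genes tested 7 rose and 0 fell with a median of 2.38, and 7 rose without C replicate 1. S100a8, a calprotectin subunit of neutrophils, was 2.13, 1.39, -0.54 and 1.10 in C and 3.65, 3.41, 4.10 and 4.94 in MCD, and S100a9, its partner, was 4.43, 4.51, 2.57 and 3.33 in C and 5.15, 6.55, 6.35 and 6.72 in MCD. In both genes all MCD arrays were above all C arrays. The differences were 3.01 ± 0.67 and 2.48 ± 0.61 (limma adjusted p = 0.00342 and 0.0072). The granule genes Ngp and Camp differed by 3.92 and 3.51, but MCD replicate 1 overlapped C in both: Camp was -2.34, 1.40, -1.21 and 0.68 in C and 0.83, 2.89, 4.10 and 4.74 in MCD. Ly6g, a surface marker by which mouse neutrophils are defined, was not called (difference -0.20, limma adjusted p = 0.722), and neither were Mpo and Elane of the primary granules. Cells were not counted.

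The macrophage lists hardly moved with all 8 arrays. None of 15 Kupffer cell genes passed the test, and of 17 genes of recruited and lipid-associated macrophages 2 rose and 1 fell. Without C replicate 1, on which these genes were high, 2 and 0 of the Kupffer genes and 5 and 1 of the recruited macrophage genes were called. Trem2, a receptor of lipid-associated macrophages, was 3.93, 0.64, -1.26 and 0.41 in C and 2.18, 2.20, 0.53 and 1.19 in MCD. C replicate 1 was the highest of all 8 arrays and the difference was 0.60 (limma adjusted p = 0.672), and 1.60 without that array (0.102). Cd63, a lysosomal membrane protein, rose by 2.10. None of 11 genes of MHC class II and dendritic cells was called, 1 T and NK lymphocyte gene of 19 rose and 1 fell, and 1 B cell gene of 13 fell. Among 27 chemokines, cytokines and innate receptors 2 rose and 1 fell. Cxcl13, the chemokine that attracts B cells, was -3.92, 0.59, -1.02 and -2.04 in C and 1.73, 2.68, 3.11 and 2.61 in MCD. It lay higher on every MCD array by 4.13 ± 0.71 (limma adjusted p = 0.000217), and by 3.36 without C replicate 1, its lowest value.

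The interferon response list was lower in MCD mice, with 1 of 23 genes higher, 7 lower and a median of -0.89. On C replicate 1 these genes lay above the other C arrays by a median of 1.15, and without it 1 was higher, 4 lower and the median -0.61. Bst2, tetherin, was at least 6.88 in C and at most 5.40 in MCD. The groups were tight and separate, with a difference of -1.80 ± 0.25 (limma adjusted p = 1.21e-05). Mx1, an antiviral GTPase, was 0.49, -0.28, -1.98 and -1.14 in C and -1.89, -2.24, -2.89 and -2.63 in MCD, overlapping through C replicate 3. It fell by 1.68 on the log2 scale (limma adjusted p = 0.00359). Ifit3, another interferon-induced antiviral protein, fell by 2.16. The gene that rose was Gbp5, a guanylate-binding protein of inflammasome activation, by 3.88, but its other probe changed in the opposite direction.

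**Figure D3:**
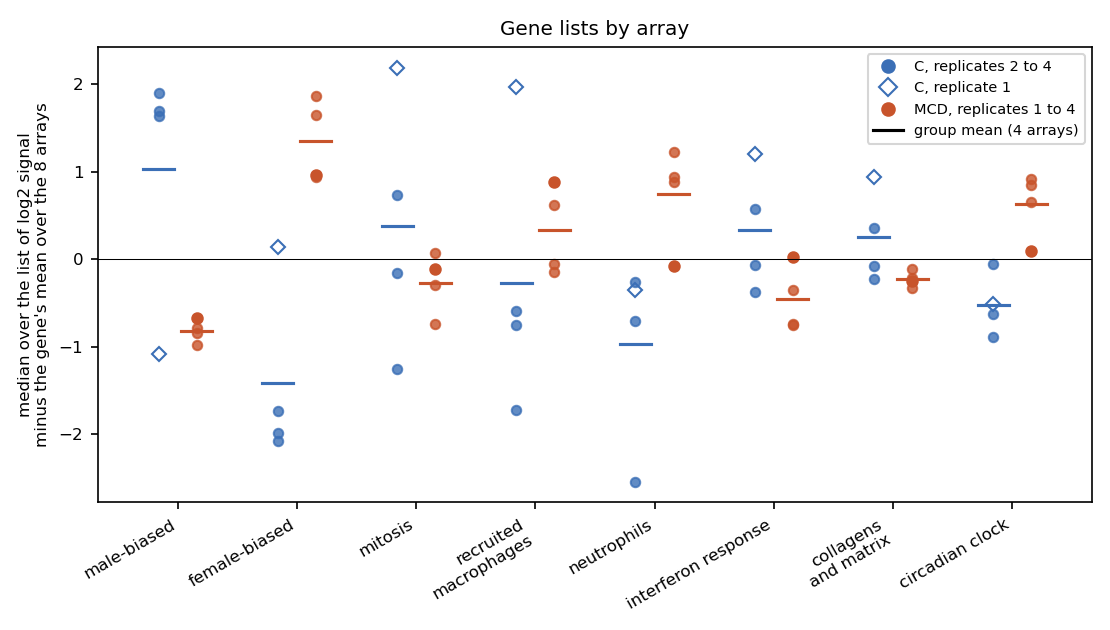
For 8 gene lists, each point is 1 array and shows the median over the list's tested genes of log2 signal minus the gene's mean over the 8 arrays. Blue is C with replicate 1 as an open diamond, orange is MCD and bars are group means; C replicate 1 lies at -1.08 for male-biased genes, below the MCD arrays at -0.98 to -0.67, and at 2.19 for mitosis genes, above all other arrays.

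Mitosis genes did not pass the test at this time, and few matrix genes did. None of 23 mitosis genes was called with all arrays or without C replicate 1, and the medians were -0.68 and -0.18. Mki67, the proliferation antigen, was 2.73, -0.13, -1.60 and 1.28 in C and 0.60, 0.60, 0.28 and 0.83 in MCD. The C arrays were spread on either side of the MCD arrays, with C replicate 1 highest. Genes of DNA replication and the entry into S phase were mixed, with 3 higher and 2 lower of 26. Ccne1, cyclin E1, was at most 0.86 in C and at least 1.44 in MCD, higher on all MCD arrays by 1.92 ± 0.32 (limma adjusted p = 0.000134). Mcm2, a subunit of the replicative helicase, rose by 1.58, and Tk1, thymidine kinase, fell by 1.43. Of 13 regeneration ligands and receptors 2 rose. Areg, amphiregulin, a ligand of the EGF receptor, was on no C array well above background and lay at least 3.65-fold higher in MCD. Hgf, hepatocyte growth factor, was not called (difference 0.19).

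Of 23 collagens and matrix proteins 0 rose and 4 fell (median -0.60), beside 6.05% and 6.09% of all genes tested. Without C replicate 1, on which they were higher by a median of 0.92, 1 rose and 2 fell (median -0.31). In that fit 14.3% of all genes were called in either direction, so the matrix counts lay near the background. Col3a1, a fibrillar collagen, was 5.27, 3.29, 3.30 and 3.89 in C and 2.26, 1.82, 1.76 and 1.49 in MCD. All C arrays were above all MCD arrays, by 2.11 ± 0.45 with C replicate 1 and by 1.66 without it (limma adjusted p = 0.00247 and 0.011). Acta2, the smooth muscle actin of activated stellate cells, was 3.39, 1.35, 0.22 and 2.12 in C and -0.44, -0.62, 0.58 and -1.16 in MCD, overlapping through C replicate 3, and fell by 2.18 on the log2 scale (limma adjusted p = 0.00774). Col1a1 was not called (difference -1.57, limma adjusted p = 0.097), and its difference was -0.79 without C replicate 1 (0.376). Of the 16 tested genes whose liver mRNA the study itself measured, Fgf21 rose, Acta2 fell and 14 were not called, Tnf, Il1b, Tgfb1, Des, Mmp2, Fap and Dpp4 among them. On C replicate 1 the 16 genes lay above the other C arrays by a median of 1.14, and without that array 1 rose and 1 fell. The paper, by contrast, reports stellate cell markers as raised in MCD livers after PH, by quantitative PCR and by immunostaining for smooth muscle actin and desmin. It also reports positive Sirius Red staining and an accumulation of stellate cells in electron micrographs of MCD livers.

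Several other lists held few calls but large single changes. Ppp1r3g, a glycogen-targeting subunit of protein phosphatase 1, was -4.34, -3.27, -1.36 and -1.36 in C and 2.59, 1.80, 1.94 and 2.36 in MCD, a difference of 4.75 ± 0.82 (limma adjusted p = 0.000228). Mt1, metallothionein 1, was 8.73, 6.09, 5.23 and 6.23 in C and between 9.16 and 9.50 in MCD, with C replicate 1 nearest to MCD, and rose by 2.76. The constitutive androstane receptor target Cyp2b10 was 1.73, 1.80, 1.48 and 1.24 in C and 4.84, 5.34, 4.99 and 5.12 in MCD. It rose by 3.51, and Por, the reductase that serves the P450 enzymes, by 1.47. Apcs, serum amyloid P, rose by 2.99 and Afp, alpha-fetoprotein, by 2.82, while the complement components C8b and C9 fell by 1.82 and 1.70. Of the 47 lists, 38 had at least 1 gene called and 9 had none.

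**Figure D4:**
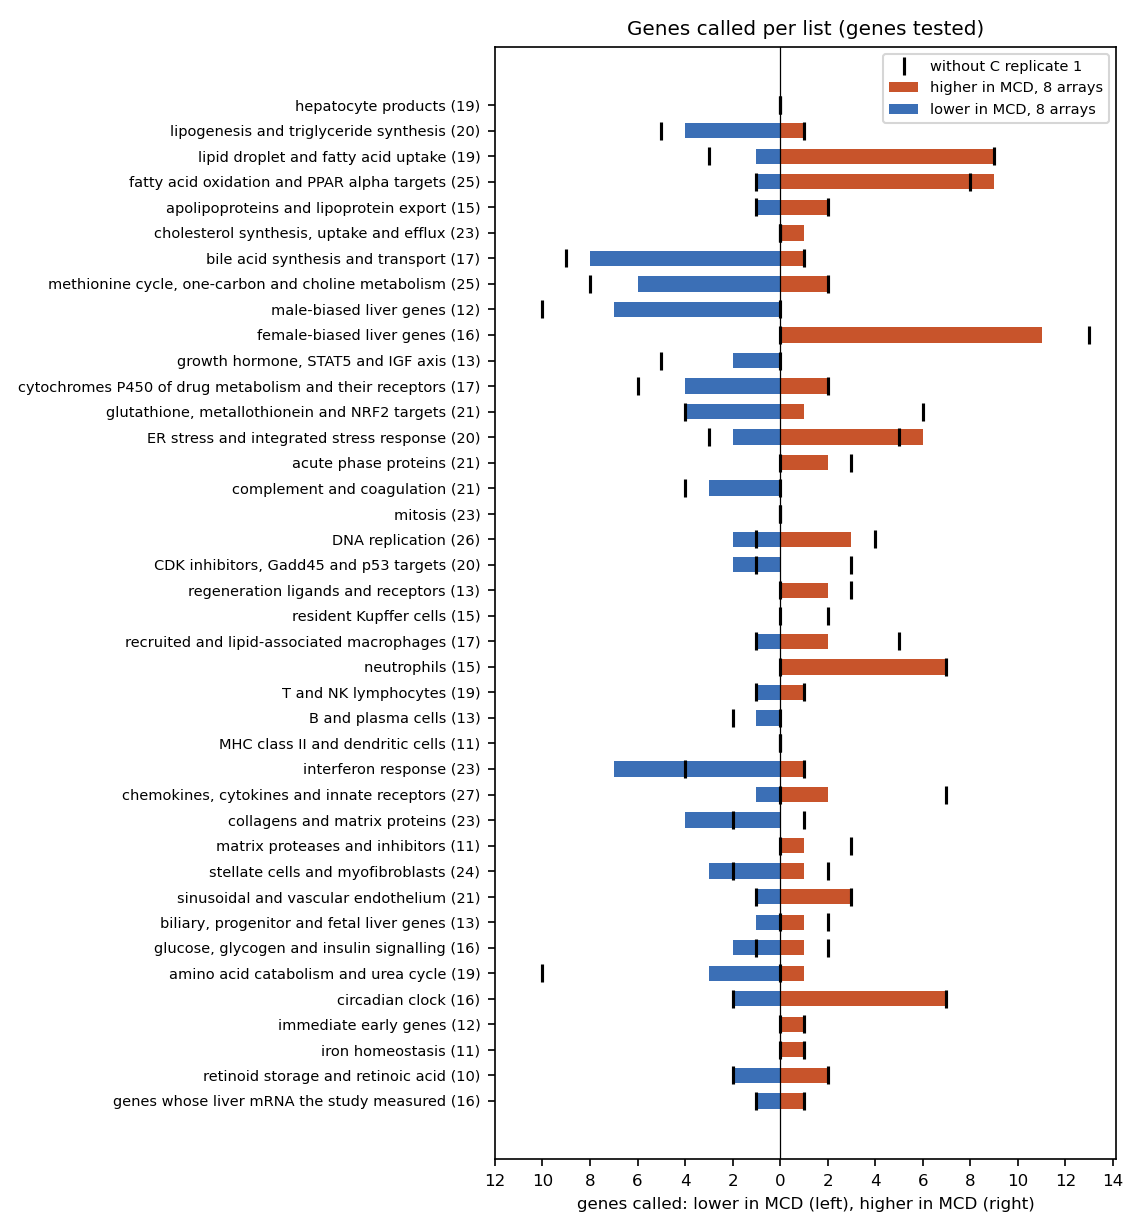
Number of genes called per list with at least 10 genes tested, lower in MCD to the left (blue) and higher to the right (orange), with the number of genes tested in brackets. Black ticks are the counts without C replicate 1; female-biased genes reach 11 to the right and bile acid genes 8 to the left.

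The diet comparison before PH and the one in treated mice after PH share no array with this one, but the livers before PH may be those of the same mice, so that comparison is not independent of it. Among the 2558 genes called here, 86.1% had the same direction before PH and 92.7% had it in treated mice, against 65.8% and 68.1% of all genes tested. Called in the same direction were 1244 genes before PH and 1197 in treated mice, and called in the opposite direction were 27 and 2. Without C replicate 1 the same direction was found for 89.4% and 90.4% of 3003 genes. In all 3 comparisons 717 genes were called in the same direction, and 816 were called here and in neither of the others. Cyp3a44 differed by 10.12 before PH and by 7.74 in treated mice, Sult1e1 by 9.10 and 8.35, and Dpys by -3.71 and -2.28. Fgf21 differed by 4.56 before PH and 4.51 in treated mice, beside 7.06 here. Clock genes were called before PH 5 times higher and 2 lower (median 0.61), where 10.9% and 15.5% of all genes were called, and in treated mice 8 higher and 2 lower (median 1.43), where 6.2% and 6.62% were.

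**Figure D5:**
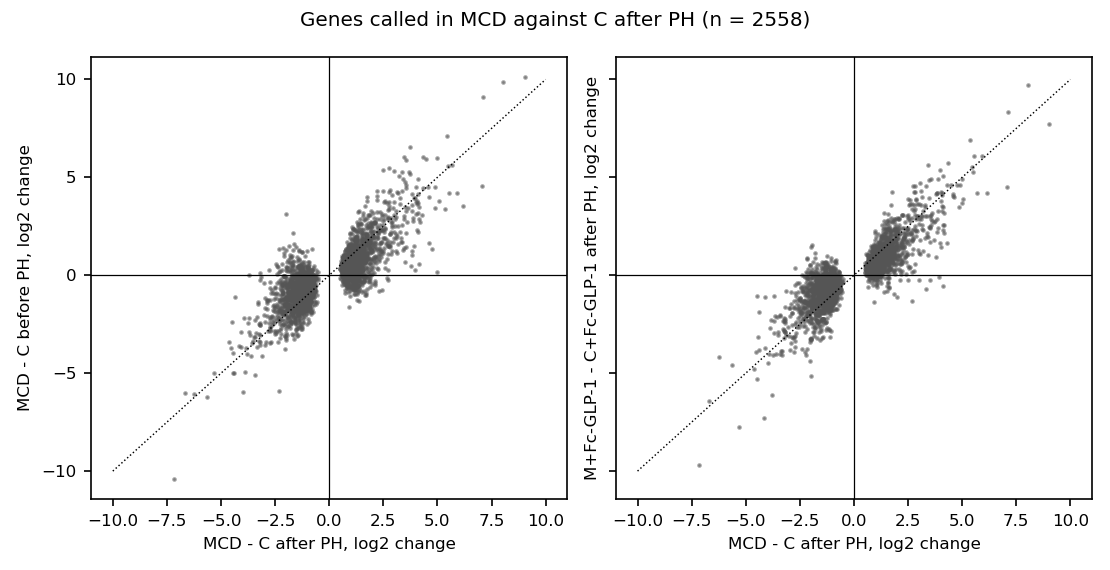
Each point is 1 of the 2558 genes called in MCD against C after PH, with its log2 change there on the x axis and its log2 change before PH (left) or in treated mice after PH (right) on the y axis. The dotted line marks equal changes; 86.1% and 92.7% of the points lie in the quadrants of equal sign.

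The diet difference itself changed between the day of PH and 2 weeks later for 601 genes (2.85%), upward, that is toward MCD, in 373 (1.77%) and downward in 228 (1.08%). When arrays were centred on the median 332 genes passed, 66 upward and 266 downward. It shifted downward for 13 of 23 mitosis genes, and for 8 without C replicate 1. In this list 20 were called higher in MCD before PH, beside 10.9% of all genes. Top2a, the topoisomerase of dividing cells, differed by 3.36 before PH and by -0.70 after, a change of -4.07 ± 0.83 (limma adjusted p = 0.0105). Its difference after PH was -0.09 without C replicate 1 (adjusted p = 0.941), and the change was -3.45 (0.0221). Trem2 differed by 4.62 before and by 0.60 after (change -4.02 ± 1.06, limma adjusted p = 0.0368), and without C replicate 1 it differed by 1.60 after and the change no longer passed (-3.02, adjusted p = 0.0751). Col3a1 differed by 0.97 before and -2.11 after (change -3.07 ± 0.64, limma adjusted p = 0.0118). Mx1 was 2.16 higher in MCD before PH and 1.68 lower after it, a change of -3.83 ± 0.53 (limma adjusted p = 0.00068). The shift was downward for 5 of 23 interferon genes, for 3 of 11 MHC class II and dendritic cell genes and for 4 of 23 collagens and matrix genes, with 1 upward. These counts were 2, 2 and 3, with 0 upward, without C replicate 1. On the other side, Cela1, an elastase, differed by -0.76 before PH and 2.46 after it, and G0s2 by 0.28 and 2.71, a change that did not pass without C replicate 1 (limma adjusted p = 0.107). C replicate 1, with high mitosis, macrophage and matrix genes, enters these differences, and without it 328 genes passed. The count lay between 274 and 374 also without C replicate 4 or MCD replicate 1, 2 or 3 after PH, or without C replicate 1 or MCD replicate 1, 3 or 4 before PH. The arrays before and after PH came from different slides and scanners, and the fit takes them as independent animals.

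Against treated mice no gene passed the test of the difference between the diet effects (0 of 21071, or 0.0%, limma, lowest adjusted p 0.072), although 1835 genes had an unadjusted p under 0.05. Values of untreated and treated mice are therefore set side by side. S100a8 differed by 3.01 in untreated and by -0.25 in treated mice (difference of the effects 3.26 ± 0.95, limma adjusted p = 0.237), and the neutrophil list, with 7 genes higher here, had 0 called in treated mice and a median of -0.25. Of 23 genes of cholesterol synthesis, uptake and efflux, 13 were called lower (6.62% of all genes were) and 0 higher in treated mice (median -1.23), beside a median of -0.07 here. Cyp7a1 differed by -1.94 in untreated and by 1.56 in treated mice (difference of the effects -3.51 ± 0.86, limma adjusted p = 0.142). Nfe2, a hematopoietic transcription factor, differed by 0.39 and -2.93, and Flacc1, named for a flagellum protein, by -2.15 and 0.88. Without C replicate 1, 14 genes passed this test, and 4, 3 and 2 passed without C replicate 2, M+Fc-GLP-1 replicate 3 and MCD replicate 4.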

How the data were processed

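Total liver RNA was hybridised to 1-colour (Cy3) arrays of 62976 spots. Per the file headers, the deposited intensity values are spot signals extracted with Feature Extraction 10.7.3.1, detrended and background-corrected within each array. The log2 values in the table deposited by the authors had been normalized by them with steps not given in the sources used here, and served as an alternative. The submitters' processing notes name limma.

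The processed intensity was divided by its 75th percentile per array and taken to log2. Of 55681 probes, 28932 were kept because some group of the 8 had all its 4 arrays well above background, and a gene was represented by its brightest such probe (21071 genes). One limma 3.58.1 model (R 4.3.3) with 8 groups of 4 arrays gave moderated tests with Benjamini-Hochberg adjustment over all genes and a threshold of 0.05. Tables and figures used Python 3.11.15, numpy 2.4.6, pandas 2.3.3 and matplotlib 3.10.9. Where no array of a group was well above background, a fold is a bound against the lowest signal well above background on each of its arrays, or the probe's own signal where higher. Intensity has no read depth, and the number of arrays limits the precision.

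Named genes were the 10 largest rises and 10 largest falls without overlap, the genes the study measured in liver mRNA, the first gene and the 2 called genes of smallest p in each of 47 lists, and the 5 of smallest p in each direction of both differences of diet effects. The comparison and the lists were chosen with earlier results of these data known. Chosen after their values were seen were Nupr1, Atf3, Per1, Per2, Per3, Tef, Nfil3, Elovl3, Hsd3b5, Slco1a1, Cyp7b1, Cyp8b1, Cyp4a14, Plin4, Plin5, Cd36, Mat2a, Cth, Gnmt, Cyp2b10, Ngp, Camp, Ifit3, Top2a and Fasn, and also Sesn2, Chac1, Herpud1, Sdf2l1, Creld2, Mpo, Elane, Tk1 and H19. Alternatives were the authors' values, normexp with quantile normalization, other centring, no filter, averaged probes, fewer groups, a replicate block and leaving out each array. List counts without C replicate 1, and a block for arrays of the same number before and after PH, were added after seeing the data. On simulated data for MCD against C, with 200 of 21071 genes changed, 31% of changes of log2 1 and 86% of log2 2 were recovered, with 5 calls among unchanged genes. The simulated noise was independent, with the same spread in every group and no array standing apart. These shares therefore need not hold for the measured arrays. Some genes that the rule names are not reported here. Quantitative PCR and protein data were not analysed here.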

Additional observations from a re-analysis of the deposited data

Results flagged for a closer look

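In 26 of 350 groups of 4 arrays tested, 1 array lay so far from the other 3 that its gap to the nearest divided by the group's range was above Dixon's 95% critical value. Chance flags about 1 group in 20. The array was in C for 16 genes and in MCD for 10. C replicate 1 was highest in Por (ratio 0.891), Tnf (ratio 0.909) and Sult2a2 (ratio 0.864). C replicate 2 was highest in Srebf1 (ratio 0.875) and Ddit3 (ratio 0.840). C replicate 3 was highest in Alb (ratio 0.886). MCD replicate 4 was highest in Rspo3 (ratio 0.858). C replicate 1 was lowest in Hnf4aos (ratio 0.831), Susd4 (ratio 0.880), Lipc (ratio 0.847), C9 (ratio 0.865), Oat (ratio 0.882), G6pc (ratio 0.953), Elovl3 (ratio 0.923), Slco1a1 (ratio 0.862) and Cyp8b1 (ratio 0.885). C replicate 3 was lowest in Robo1 (ratio 0.904). MCD replicate 1 was lowest in Uroc1 (ratio 0.955), Fap (ratio 0.873) and Gnmt (ratio 0.854). MCD replicate 2 was lowest in Ptgds (ratio 0.891) and Chka (ratio 0.926). MCD replicate 3 was lowest in Hsd3b5 (ratio 0.963). MCD replicate 4 was lowest in Cd3e (ratio 0.939), Bst2 (ratio 0.840) and Raver1 (ratio 0.879).

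For 23 named genes the MCD minus C difference after PH was itself different from that before PH by limma at an adjusted p under 0.05, on the log2 scale. It was higher after PH for G0s2 by 2.43, Cxcl13 by 3.58, Cela1 by 3.23, Pllp by 2.51, Raver1 by 2.24, Vmn1r70 by 1.88 and Ctso by 2.51. The after minus before value was negative for Cyp2c55 (-1.69), Mki67 (-2.98), Trem2 (-4.02), Bank1 (-2.43), Cxcl14 (-3.26), Col1a1 (-3.21), Col3a1 (-3.07), Oat (-1.98), Pf4 (-1.98), Mx1 (-3.83), Robo1 (-2.98), Flacc1 (-3.52), Nipa1 (-2.04), Sparc (-2.14), Ifit3 (-2.76) and Top2a (-4.07). The arrays after PH in these differences lay on slides and a scanner other than those before PH, and C replicate 1 was among them. Without it, G0s2, Cyp2c55, Mki67, Trem2, Bank1, Cxcl13, Cxcl14, Col1a1, Pf4 and Ifit3 no longer passed (limma adjusted p 0.0571 to 0.109). With arrays of the same number before and after PH as a block, G0s2, Col1a1 and Oat did not pass (limma adjusted p = 0.0529, 0.0686 and 0.0722).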

How the results depend on the processing

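The count of genes called in MCD against C, 2558, was 1611 when only these groups were fitted, with 915 higher and 696 lower, and 1659 to 3003 on leaving out 1 array. The split of 1275 higher and 1283 lower became 1438 and 886 when arrays were centred on the median, and 1049 and 1698 when centred on probes detected on all arrays. The other settings gave 1815 without the filter to 2734 with averaged probes. The count for the diet difference after minus before PH, 601, was 332 with centring on the median, with 66 upward and 266 downward, 329 without the filter, and 274 to 832 on leaving out 1 array. The count for untreated minus treated mice, 0, was 5 with the authors' values, 5 with normexp, 1 with the arrays after PH alone, 1 with only the groups compared, and 0 to 14 on leaving out 1 array. The cause was not tested.

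Of 178 named genes, none that was called reversed in any setting. The calls lost numbered 8 with the authors' values, 13 with normexp, 14 without the filter, 7 with centring on the median, 1 with centring on detected probes, 4 with averaged probes, 15 with the arrays after PH alone, 34 with only the groups compared, and 10 to 19 on leaving out 1 array. Elovl3, Hsd3b5, Cyp7b1, Cyp27a1, Gnmt, Ngp, Camp, Per2 and C8b were among the 34. The deviations of same-numbered C and MCD arrays correlated across genes at 0.144, 0.061, 0.093 and 0.200. Each of these was the highest value of its C array, while arrays with different numbers correlated at -0.199 to 0.161. The main fit takes the arrays as unpaired. With the replicate number as a block 2633 genes were called, and 606 and 0 in the 2 differences of diet effects, and no named gene changed its call. Within each diet, same-numbered arrays before and after PH correlated at -0.034 to 0.025. With their number as a block, an alternative chosen after seeing the data, 434 genes passed in place of 601.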
